A study of Homo sapiens with 6 samples.

Results

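Mitotic genes were examined in the human β cell line EndoC-βH1 after acute exposure to AZD7762, a small molecule that inhibits the checkpoint kinases CHEK1 and CHEK2. The set holds 40 genes out of the 60671 identifiers in the count files. They were chosen by name as genes of late G2 and mitosis, outside the PLK, CHEK, CDC25 and WEE1 genes. The choice was made with earlier results of these data known. All 40 were found in the files, and all 40 passed the filter on low counts that left 17649 genes for testing.

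The series holds 6 RNA-seq libraries from cells labelled wild type, 3 with the vehicle DMSO and 3 with 1 µM AZD7762. Both groups spent 1 h of starvation in 0.5 mM glucose followed by a stimulation of 1 h in 0.5 or 20 mM glucose, with DMSO or AZD7762 present in both steps, and the labels do not say which glucose level each library had. EndoC-βH1 is 1 line, immortalized with viral and telomerase transgenes, so its division is not that of an adult β cell. The study's methods describe in vitro replicates in general as independent, but the labels do not tie the 3 samples of a group to separate cultures, so the p-values measure only the spread between these samples, which may be technical.

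Entry into mitosis is driven by CDK1 bound to B-type cyclins. CHEK1 and CHEK2 are known to hold this kinase back when DNA is damaged or replication is incomplete. Aurora kinases then build the spindle and correct its attachments, the spindle assembly checkpoint delays anaphase, and the anaphase-promoting complex with CDC20 ends mitosis by marking cyclin B and securin for destruction. The genes for these proteins are switched on together late in the cycle by FOXM1, B-MYB and the MuvB complex, which bind the cell cycle genes homology region (CHR) of their promoters, commonly beside CCAAT boxes bound by NF-Y. Adult β cells rarely divide, whereas this line proliferates in culture.

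The cell type label was checked first. All 13 β cell markers were detected and passed the filter, and CHGA was the most abundant of them at 3601 normalized CPM (counts relative to the scaled library total) with DMSO. The level of INS was 1260 CPM in the controls and 1410 CPM in treated cells. The 13 markers summed to 8737, 8156 and 9373 CPM in DMSO replicates 1, 2 and 3 and to 9367, 8899 and 9344 CPM in AZD7762 replicates 1, 2 and 3, so the groups overlapped. Of the 9 markers of other islet cells, TTR was the most abundant at 1863 CPM with DMSO and SST stood at 215 CPM, while GCG was at 1.40 CPM. Markers of acinar or duct cells (8 genes) summed to 48.6 ± 3.20 CPM with DMSO and 53.2 ± 3.23 CPM with AZD7762 (SD, n = 3), led by KRT19, with PRSS1, CELA3A and AMY2A without a count in any library. Markers of mesenchymal, endothelial or immune cells (10 of 11 found) summed to 17.2 ± 3.01 and 19.0 ± 1.62 CPM (SD, n = 3), led by COL1A1, with KDR and CD3E without a count in any library. None of the markers was called by edgeR, but SST (0.24), CPA1 (0.24) and COL1A2 (0.58) were higher on the log2 scale at an unadjusted p below 0.05, and so was the β cell factor NKX6-1 (0.15), while NEUROD1 was lower (-0.23). Their part in the mitotic differences was not tested. Summed over the 40 mitotic genes the level was 4878, 5076 and 4915 CPM with DMSO and 4981, 5263 and 5360 CPM with AZD7762, so the groups overlapped on this sum, which TOP2A leads.

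Library totals lay between 20486391 and 29402440 counts, and the floor of detection, set at 3 counts, was equal to 0.102 CPM in the deepest library and 0.146 CPM in the shallowest (counting error only). The smallest count of any of the 40 genes in any library was 14, and 39 of the 40 exceeded 10 CPM in every library. The mitotic genes took 0.490%, 0.513% and 0.501% of all counts in DMSO replicates 1, 2 and 3 and 0.491%, 0.516% and 0.532% in AZD7762 replicates 1, 2 and 3. In bulk RNA, more dividing cells and more mitotic RNA per cell cannot be told apart. Mitochondrial genes took 1.57%, 2.13% and 2.12% of the counts in DMSO replicates 1, 2 and 3 and 2.26%, 2.28% and 2.63% in AZD7762 replicates 1, 2 and 3, so this share was higher in every treated library. With mitochondrial genes left out before scaling, the median log2 fold change of the 40 genes was 0.10, as it was with them.

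Promoters are shown for genes with an unadjusted p below 0.05 that hold a CHR string, because the CHR and CCAAT elements named above are known from genes of this kind. They were thus chosen for holding it. The windows of CCNA2 and AURKB, whose p-values were smaller than those of CCNB1 and PTTG1, held CCAAT but no CHR string. Only TTTGAA and TTTAAA were searched as CHR strings, so a window without them is not shown to lack the element. RefSeq windows of 300 bases (250 before to 50 after the annotated start, build GRCh38.p14) were used, and 33 of the 40 genes had at least 1 window, giving 37 windows. No window was used here for AURKA, UBE2C, BIRC5, TPX2, FOXM1, BUB3 and TTK. The 150 bases before the start follow for 5 genes, 5′ to 3′ on the strand of the gene, with matches to TTTGAA or TTTAAA (CHR) and to CCAAT, on either strand, in capitals. The stretch of KIF20A is chr5:138178962-138179111, that of CDC20 is chr1:43358831-43358980 and that of CENPA is chr2:26785906-26786055, all on the plus strand. Those of CCNB1 and PTTG1 are chr5:69167000-69167149 and chr5:160421705-160421854, also on the plus strand.
KIF20A: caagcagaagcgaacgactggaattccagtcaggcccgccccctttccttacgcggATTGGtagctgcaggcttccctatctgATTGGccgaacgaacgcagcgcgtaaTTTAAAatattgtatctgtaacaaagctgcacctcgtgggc
CDC20: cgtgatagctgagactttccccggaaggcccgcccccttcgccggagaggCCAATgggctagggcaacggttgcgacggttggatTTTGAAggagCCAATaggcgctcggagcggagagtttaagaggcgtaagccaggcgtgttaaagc
CENPA: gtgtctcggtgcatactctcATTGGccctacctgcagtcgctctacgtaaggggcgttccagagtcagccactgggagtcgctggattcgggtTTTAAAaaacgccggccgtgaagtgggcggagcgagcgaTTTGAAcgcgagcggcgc
CCNB1: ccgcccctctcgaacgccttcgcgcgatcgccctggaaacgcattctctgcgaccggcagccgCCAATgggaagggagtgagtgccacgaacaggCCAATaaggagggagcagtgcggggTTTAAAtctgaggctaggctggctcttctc
PTTG1: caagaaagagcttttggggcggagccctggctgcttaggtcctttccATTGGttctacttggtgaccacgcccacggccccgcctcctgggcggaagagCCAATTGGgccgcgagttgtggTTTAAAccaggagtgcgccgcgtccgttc
In KIF20A the TTTAAA match began at position -41 from the start and in CCNB1 at position -30, each downstream of a pair of CCAAT matches. In CDC20 a TTTGAA match at position -65 lay between its CCAAT matches, and CENPA held TTTAAA at -57 and TTTGAA at -18. PTTG1 held TTTAAA at -29 in the window shown, and the same match lay at -84 from the start of its other window. A pair of its CCAAT matches overlapped on opposite strands. The single CHR match of KIF2C crossed the annotated start and is not printed.

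A CHR string, searched as TTTGAA or TTTAAA on both strands, occurred in 86.5% of the 37 windows of the mitotic genes and in 24% of all 35116 RefSeq promoter windows. CCAAT occurred in 81.1% of the mitotic windows and 34.6% of all windows. E2F strings, searched as TTTCGCG and also as TTTCCCG and furthermore as TTTGGCG, occurred in 18.9% against 7.21%. TTTAAA reads the same on both strands and was counted once, and some genes contributed more than 1 window, so windows are not independent. Where the windows of a gene overlapped, as in PTTG1, a match in both was counted in each. Of 54 CHR matches, 32 began in the 120 bases before the start, with a median position of -35 over all 54. Of 69 CCAAT matches, 50 began there, with a median position of -87, as the plot of motif positions shows. A match to these letters is a description of the sequence and not evidence of binding.

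**Figure D1:**
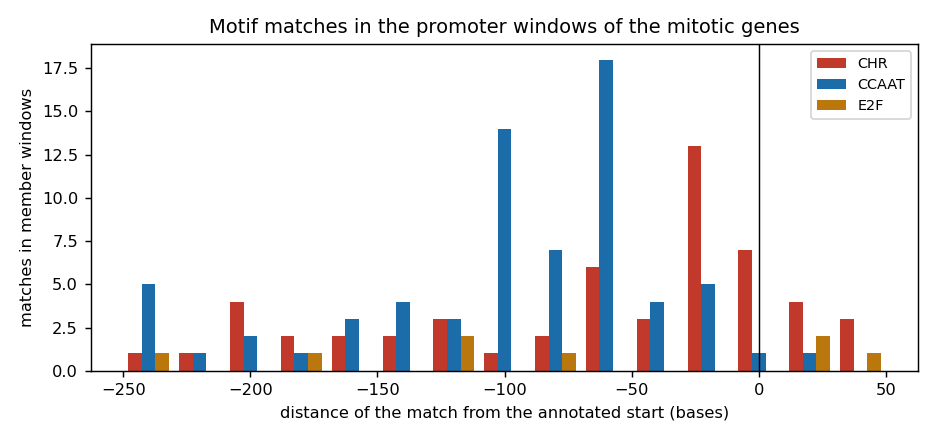
Number of matches to CHR, CCAAT and E2F strings (vertical axis) by distance in bases of the match from the annotated start (horizontal axis, bins of equal width), over the 37 RefSeq windows of the mitotic genes. CHR matches lie closer to the start (median -35) than CCAAT matches (median -87).

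Before treatment is compared, the genes can be ranked by level, which needs counts per length of exon. With DMSO the median was 18.6 CPM per kb of exon. TOP2A, the topoisomerase that untangles sister chromatids, was highest at 147 ± 5.02 CPM per kb, followed by the ubiquitin-conjugating enzyme UBE2C of the anaphase-promoting complex at 82.9 ± 2.23 and the spindle assembly factor TPX2 at 69.8 ± 2.30 CPM per kb (SD, n = 3). CCNA2 (cyclin A2) at 55.9 ± 2.48, CDK1 at 54.1 ± 2.96 and CCNB1 (cyclin B1) at 52.1 ± 2.54 CPM per kb came next. CDK1 differed from each of the others by less than its SD, while CCNA2 and CCNB1 differed by more than theirs. At the low end stood KIF14 at 4.93 ± 0.375, CENPE at 4.76 ± 1.02, PRC1 at 2.54 ± 0.128 and NUSAP1 at 0.191 ± 0.0777 CPM per kb. The last values of that order are uncertain, because 57.6% of the exon length of PRC1 and 86.8% of that of NUSAP1 is shared with another annotated gene on the same strand. BUB1B (10.2%) and CENPA (7.08%) also shared over 5% of their exons on the same strand. On the opposite strand, PRC1, FOXM1 (15.9%), CCNF (11.8%), NUSAP1, CCNA2 (9.24%) and KIF20A (5.35%) shared over 5%, and because the sources do not say whether counting used strand, reads from such overlaps cannot be assigned with certainty.

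**Figure D2:**
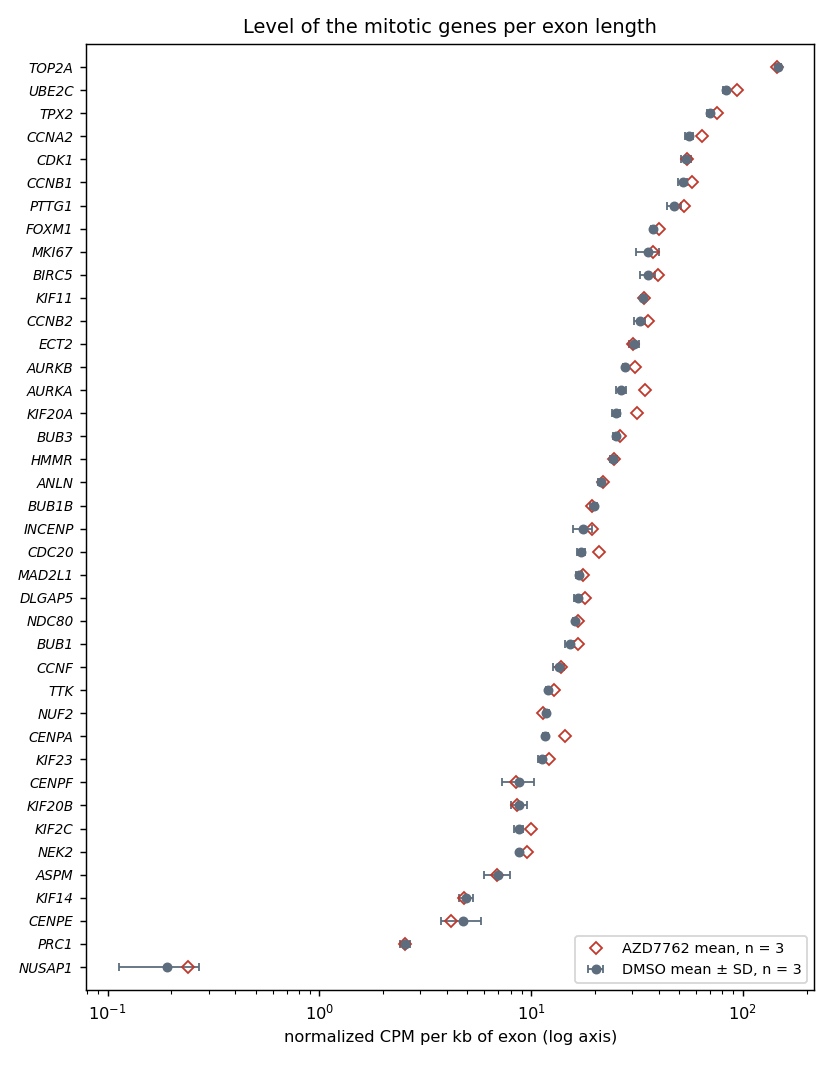
Level of each of the 40 mitotic genes in normalized CPM per kb of exon (horizontal log axis), with grey points and bars for the DMSO mean ± SD (n = 3) and open red diamonds for the AZD7762 mean (n = 3). TOP2A is highest at 147 CPM per kb with DMSO and NUSAP1 lowest at 0.191, a range far wider than the group difference of any gene. Neighbouring genes can lie closer than that difference, as AURKA (26.6 with DMSO, 34.3 with AZD7762) and AURKB (27.6 with DMSO) do.

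With AZD7762, 30 of the 40 mitotic genes had a higher fitted level and 10 a lower one, and between 26 (library totals alone) and 35 (GC content and length trends removed) were higher in other settings. AURKA, the Aurora A kinase of the centrosome and spindle poles, rose and was the only one of the 40 called at an adjusted p below 0.05, in the quasi-likelihood test of edgeR, adjusted over all 17649 genes by the method of Benjamini and Hochberg. That is 1 of 40, against 0.357% of all genes tested called higher (0.708% called in either direction). Without adjustment, 11 of the 40 (27.5%) had p below 0.05, all of them higher with AZD7762, against 4.43% of all genes tested that were higher and 9.68% in either direction. None of the 40 was lower at that threshold, against 5.25% of all genes. After adjustment none was called lower by edgeR's quasi-likelihood test, against 0.351% of all genes. None was called lower by DESeq2 either, which called 97 of the 17649 genes lower. DESeq2 called 2 of the 40 higher, AURKA and KIF20A, against 0.442% of all genes tested. Both edgeR's exact test and its likelihood ratio test called 4, adding CDC20 and CENPA. These tests called more genes as a whole, 0.589% and 0.601% of all genes higher. Because the 40 genes were listed with earlier results of these data known, their shares and medians, here and below, are descriptions and not a test.

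A fitted log2 fold change above 0 was seen in 75% of the mitotic genes and 52.4% of all genes tested. A share of that size was not particular to them, since it was 72.5% (29 of 40) in a list of DNA replication genes. The median log2 fold change was 0.10 for the mitotic genes and 0.01 for all genes. In 15 of the 40 (37.5%) every AZD7762 library lay above every DMSO library, against 6.79% of all genes, and in none did every AZD7762 library lie below, against 8.25%. The median of the mitotic genes exceeded that of all genes by 0.0945 on the log2 scale, and by between 0.0749 and 0.105 over 19 other processing settings, which include leaving out each library in turn. The number at p below 0.05 was less steady. It was 6 without DMSO replicate 2, without AZD7762 replicate 1 or without AZD7762 replicate 2, where 6.61%, 5.87% and 8.7% of all genes were below that threshold in either direction. Without AZD7762 replicate 3 it was 14, against 11.9% of all genes.

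**Figure D3:**
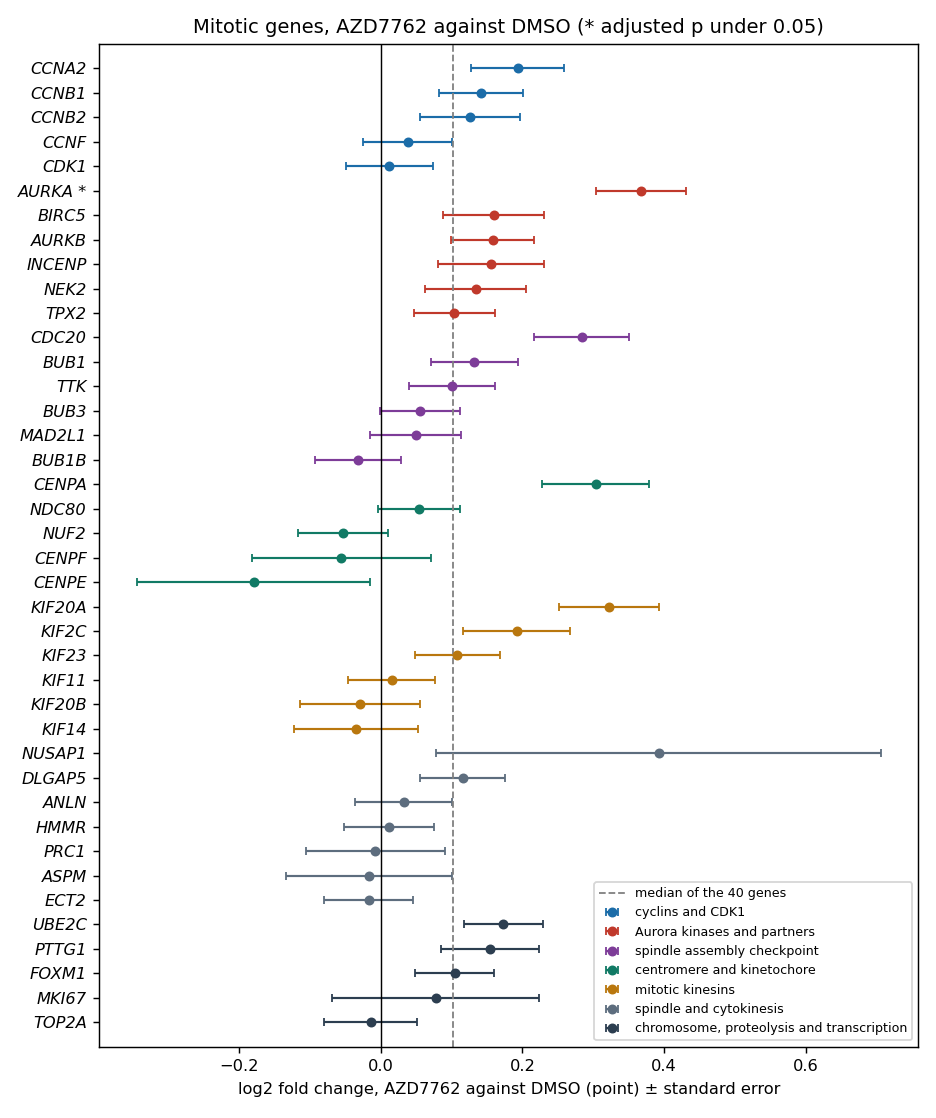
Fitted log2 fold change of AZD7762 against DMSO (points) with its standard error (bars) for each of the 40 mitotic genes, coloured by role, with a dashed line at their median of 0.10. Most points lie right of 0, AURKA is the gene past the adjusted threshold, and NUSAP1 and CENPE carry the widest errors.

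The role group of the Aurora kinases and their partners also held NEK2, a centrosomal kinase placed there for convenience of grouping. The median of this group was the largest of the 7 role groups, 0.16 on the log2 scale. With GC content and length trends removed, or without DMSO replicate 1 or AZD7762 replicate 3, the cyclins had the largest. All 6 members of the Aurora group were higher, where 52.4% of all genes were. Of the 6, 3 had an unadjusted p below 0.05 (4.43% of all genes, higher), and in 4 the groups did not overlap (6.79% of all genes, higher). AURKA (chr20:54944445-54967393, minus strand, GRCh37) measured 82.5, 75.5 and 75.4 CPM in DMSO replicates 1, 2 and 3 and 99.8, 106 and 95.9 CPM in AZD7762 replicates 1, 2 and 3. Every treated library lay above every control library, with DMSO replicate 1 the highest of the controls. The mean went from 77.8 ± 4.10 to 100.4 ± 4.90 CPM (SD, n = 3), a log2 fold change of 0.37 (SE 0.0637), with an edgeR adjusted p = 0.0153. The call was kept in 16 of the 19 other settings and lost without DMSO replicate 2 (edgeR adjusted p = 0.101), without AZD7762 replicate 1 (edgeR adjusted p = 0.0833) and without AZD7762 replicate 2 (edgeR adjusted p = 0.102), while its log2 fold change stayed between 0.32 and 0.41. In the fit without AZD7762 replicate 1, KIF20A was the gene called in its place.

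AURKB encodes the Aurora kinase of the chromosomal passenger complex, which corrects faulty attachments of chromosomes to the spindle. It measured 62.3, 60.6 and 62.8 CPM with DMSO and 71.8, 67.8 and 67.5 CPM with AZD7762, again without overlap. Its log2 fold change was 0.16 (SE 0.0583), which did not pass (edgeR adjusted p = 0.390). BIRC5 (survivin, a subunit of the same complex) measured 145, 137 and 124 CPM with DMSO and 162, 150 and 142 CPM with AZD7762, where the lowest treated library lay below the highest control. Its log2 fold change of 0.16 (SE 0.0713) did not pass either (edgeR adjusted p = 0.499). The passenger scaffold INCENP (0.16), the centrosomal kinase NEK2 (0.13) and the Aurora A activator TPX2 (0.10) had positive log2 fold changes with p above 0.05, though in NEK2 and TPX2 the groups did not overlap. Summed over the 6 genes, the level was 648, 629 and 619 CPM in the DMSO libraries and 717, 719 and 687 CPM in the AZD7762 libraries. The group total was thus higher in each treated library than in any control library.

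**Figure D4:**
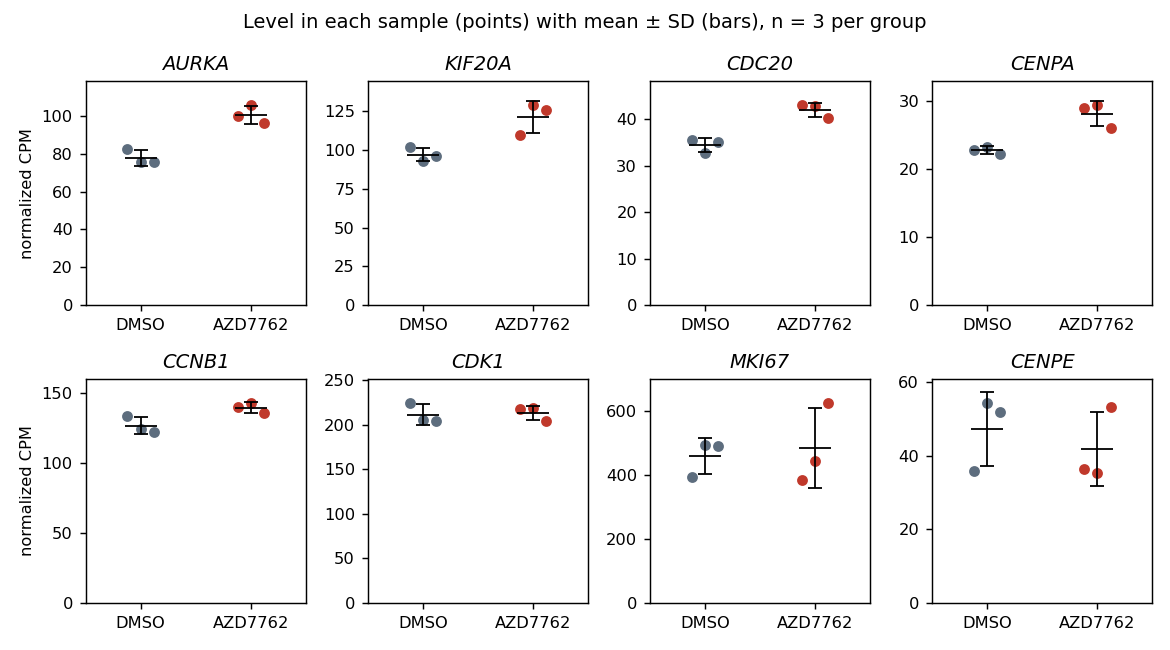
Normalized CPM (vertical axes from 0) of 8 mitotic genes in each DMSO (grey) and AZD7762 (red) library, with the mean ± SD as bars (n = 3 per group). In AURKA, KIF20A, CDC20, CENPA and CCNB1 the treated libraries lie above all controls, in CDK1 the groups coincide, and in MKI67 and CENPE the spread within groups exceeds the difference between them.

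The spindle assembly checkpoint group was led by CDC20, the activator of the anaphase-promoting complex that the checkpoint restrains. It measured 35.5, 32.8 and 35.2 CPM with DMSO and 43.0, 42.7 and 40.2 CPM with AZD7762. All treated libraries were above all controls, and within each group the libraries lay close together. The log2 fold change was 0.28 (SE 0.0671, edgeR adjusted p = 0.104). The checkpoint kinases BUB1 (0.13) and TTK (0.10) were higher without overlap between the groups, and the checkpoint proteins BUB3 (0.06) and MAD2L1 (0.05) were closer to 0, all with p above 0.05. BUB1B, which encodes the inhibitor BUBR1, was the single member with a negative log2 fold change, -0.03 (95% interval from -0.16 to 0.10). The median of the 6 genes was 0.08, and it ran from 0.05 to 0.11 without 1 sample. The value of MAD2L1 ran from 0.006 to 0.10 in those fits.

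Among the cyclins and CDK1, all 5 genes had positive log2 fold changes, with a median of 0.13, though CDK1 turned negative under the scalings named below and CCNF when GC content and length trends were removed. CCNA2, whose cyclin acts in S phase and early mitosis, measured 161, 153 and 147 CPM with DMSO and 177, 187 and 163 CPM with AZD7762, and its groups did not overlap by a narrow margin. Its log2 fold change was 0.19 (SE 0.0656, edgeR adjusted p = 0.339). CCNB1, the mitotic cyclin that brings CDK1 into action, measured 134, 124 and 122 CPM with DMSO and 140, 143 and 136 CPM with AZD7762, also without overlap. The fitted log2 fold change was 0.14 (SE 0.0592, edgeR adjusted p = 0.465). CCNB2 (cyclin B2) at 0.13 and CCNF (cyclin F, a ubiquitin ligase subunit) at 0.04 had p above 0.05. CDK1 itself, which is the kinase these cyclins activate, measured 225, 206 and 204 CPM with DMSO and 218, 219 and 204 CPM with AZD7762. The groups overlapped entirely. Its log2 fold change was 0.01 (SE 0.0614, edgeR adjusted p = 0.970), with a 95% interval from -0.12 to 0.15, and its sign turned negative under upper quartile scaling and with library totals alone.

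Of the mitotic kinesins, KIF20A, a motor of the central spindle needed for cytokinesis, had the largest log2 fold change of the 40 genes after NUSAP1 and AURKA. It measured 102, 93.2 and 96.1 CPM with DMSO and 110, 129 and 125 CPM with AZD7762. All treated libraries were above the controls, though AZD7762 replicate 1 stood nearer to them than the other two. The log2 fold change was 0.32 (SE 0.0705, edgeR adjusted p = 0.0693), and 8 of the 19 other settings called it, DESeq2 among them, with adjusted p over all 19 between 0.00154 and 0.313. KIF2C (MCAK, which removes tubulin from microtubule ends) measured 33.7, 31.4 and 30.6 CPM with DMSO and 38.2, 37.8 and 33.4 CPM with AZD7762, where AZD7762 replicate 3 lay within the range of the controls. Its log2 fold change was 0.19 (SE 0.0755, edgeR adjusted p = 0.427). KIF23 (0.11), a centralspindlin subunit, was higher without overlap, and the bipolar spindle motor KIF11 (0.02), KIF20B (-0.03) and KIF14 (-0.03) lay near 0, with the sign of KIF11 negative under upper quartile scaling and library totals alone.

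The centromere and kinetochore genes divided. CENPA, the histone H3 variant that marks centromeres, measured 22.8, 23.3 and 22.2 CPM with DMSO and 28.9, 29.4 and 26.0 CPM with AZD7762. The groups were well separated, and the log2 fold change was 0.30 (SE 0.0754, edgeR adjusted p = 0.130). The kinetochore motor CENPE measured 35.7, 54.4 and 51.8 CPM with DMSO and 36.5, 35.4 and 53.3 CPM with AZD7762. Each group thus held both low and high libraries, and the log2 fold change of -0.18 (SE 0.165, edgeR adjusted p = 0.782) was the most negative of the 40, with the largest error after NUSAP1. Without AZD7762 replicate 3 it was -0.39 and still not called. Leaving out DMSO replicate 2 instead shrank the fall of CENPE to -0.07, so its size depended on single libraries. CENPF, a large kinetochore protein, measured 88.7, 126 and 114 CPM with DMSO and 93.5, 97.1 and 125 CPM with AZD7762. The log2 fold change of -0.06 (SE 0.126, edgeR adjusted p = 0.921) turned positive without DMSO replicate 2 or AZD7762 replicate 1. NUF2, a subunit of the NDC80 complex that grips microtubules, measured 38.3, 40.5 and 40.2 CPM with DMSO and 38.0, 37.6 and 39.1 CPM with AZD7762. The groups overlapped and the log2 fold change was -0.05 (SE 0.0633, edgeR adjusted p = 0.840). Its partner NDC80 was at 0.05. The median of these 5 genes was -0.05, and 0.04 without DMSO replicate 2.

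The spindle and cytokinesis genes had a median of 0.01 and no p below 0.05. Without 1 sample their median ran from -0.01 (without DMSO replicate 1) to 0.07 (without AZD7762 replicate 1). DLGAP5 (0.12), which stabilizes spindle fibres, was higher without overlap. ANLN (0.03), HMMR (0.01), PRC1 (-0.01), ASPM (-0.02) and ECT2 (-0.02), which act at the spindle poles, the midzone and the cleavage furrow, lay within their standard errors of 0, and the signs of ANLN and HMMR turned with library totals alone. NUSAP1, a microtubule binding protein, had the largest fitted log2 fold change of the 40, 0.39 (SE 0.314, edgeR adjusted p = 0.743), at very low levels of 0.474, 0.588 and 1.01 CPM with DMSO and 0.994, 0.903 and 0.703 CPM with AZD7762. The groups overlapped, with DMSO replicate 3 the highest library of all, and most of the exon length of NUSAP1 is shared as given above. Its log2 fold change was 0.72 without DMSO replicate 3. Without DMSO replicate 1 it was 0.16, below that of AURKA (0.41), so its rank depended on single libraries.

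The remaining 5 genes act on chromosomes, proteolysis and transcription. UBE2C measured 109, 103 and 107 CPM with DMSO and 122, 119 and 119 CPM with AZD7762, without overlap and with little spread. Its log2 fold change was 0.17 (SE 0.0554, edgeR adjusted p = 0.293). PTTG1 (securin, which holds separase inactive until anaphase) measured 98.7, 96.9 and 85.6 CPM with DMSO and 107, 108 and 98.5 CPM with AZD7762, overlapping by 1 library, with a log2 fold change of 0.15 (SE 0.0688, edgeR adjusted p = 0.498). FOXM1, the transcription factor that drives many genes of this set, measured 182, 188 and 182 CPM with DMSO and 192, 205 and 197 CPM with AZD7762. The groups did not overlap, and the log2 fold change was 0.10 (SE 0.0557, edgeR adjusted p = 0.591). MKI67, which encodes the proliferation antigen Ki-67, measured 393, 494 and 491 CPM with DMSO and 384, 444 and 626 CPM with AZD7762. Its spread between treated libraries was wider than the distance between the groups, and the log2 fold change of 0.08 (SE 0.146, edgeR adjusted p = 0.907) was -0.15 without AZD7762 replicate 3 and -0.03 without DMSO replicate 1. TOP2A measured 917, 973 and 919 CPM with DMSO and 867, 945 and 969 CPM with AZD7762. The log2 fold change was -0.01 (95% interval from -0.16 to 0.13).

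Spread between libraries was not even across the 40 genes. The coefficient of variation within groups had a median of 4.74%. It was largest in NUSAP1 (28.9%), followed by CENPE (22.8%), MKI67 (19.3%), CENPF (17.0%), ASPM (15.4%), KIF20B (9.47%) and KIF14 (9.01%). Apart from NUSAP1 these are genes with more than 6800 bases of exon. In each of these long genes DMSO replicate 1 was the lowest control library and AZD7762 replicate 3 the highest treated one, as the map of deviations shows. BUB3 was the remaining gene of that length and did not share the pattern. Both the length limit and the order of libraries were taken from these same values, so they only describe them. Of the 33 shorter genes, 5 had the same order, TOP2A, PRC1, HMMR, DLGAP5 and NUF2. How often it occurs over all genes tested was not counted, so these counts are not read further. AZD7762 replicate 2 held the highest value of all 6 libraries for 16 of the 40 genes, and DMSO replicate 3 the lowest for 16. The shares of all genes tested with these extremes were not counted either, so a trait of whole libraries cannot be told apart.

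**Figure D5:**
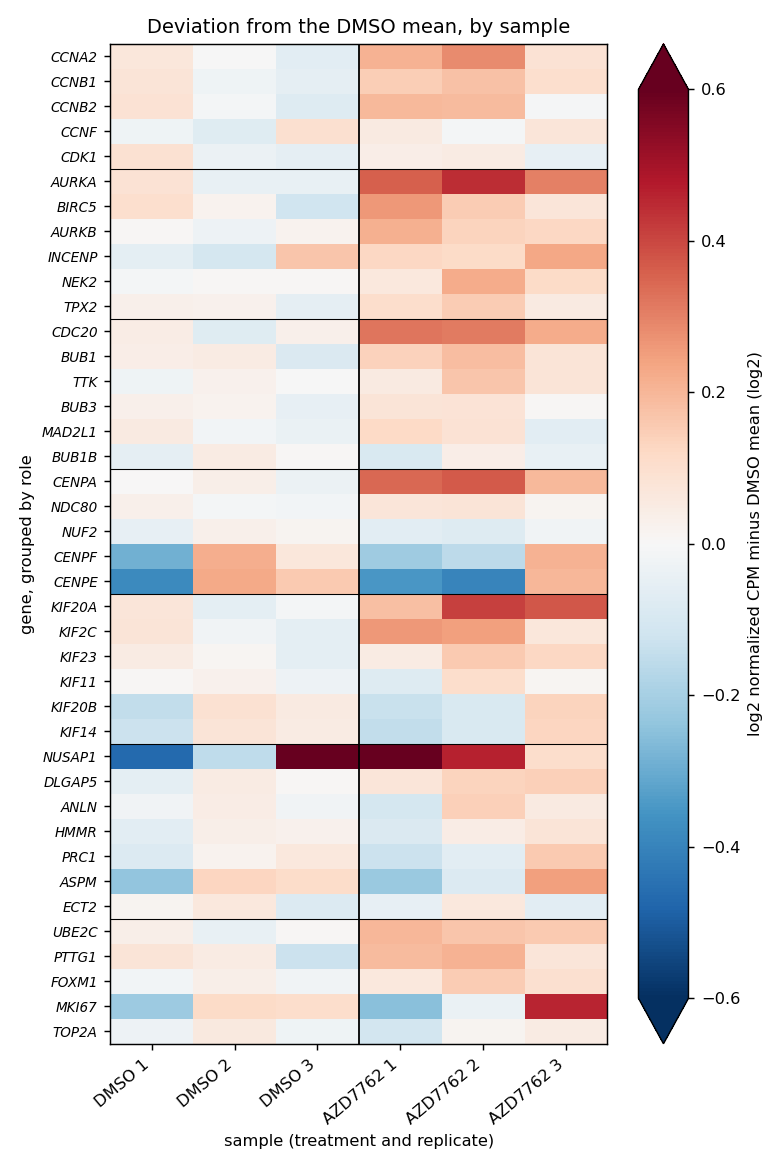
Deviation of log2 normalized CPM from the DMSO mean (colour, red higher and blue lower) for the 40 mitotic genes (rows, grouped by role) in the 6 libraries (columns). Red fills the AZD7762 columns for the Aurora group, CDC20, CENPA and KIF20A, while CENPE, CENPF, ASPM and MKI67 are blue in DMSO 1 and AZD7762 1 and red in AZD7762 3.

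Base composition and length moved with the differences. The 11 genes at p below 0.05 had exon GC contents between 41.9% and 57.6% (median 48.7%) and a median exon length of 2433 bases, and the 10 genes with a negative log2 fold change had GC contents between 34.3% and 47.1% (median 38.0%) and a median length of 6622.5 bases. Across the 40 genes, which share their libraries, Pearson's r between log2 fold change and GC content was 0.59, against 0.17 over all genes tested. When smooth trends on GC content and exon length were taken out of each library, r over the 40 genes was 0.37, 18 of the 40 had p below 0.05 (11.7% of all genes in the same fit) and 4 were called (1.31% of all genes, against 0.708% without that step). The median difference from all genes was 0.0932 in that fit.

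Genes of the same pathway outside the set were taken from lists written by function. PLK1, the Polo-like kinase of mitotic entry, measured 77.1, 68.6 and 78.4 CPM with DMSO and 90.3, 88.3 and 91.4 CPM with AZD7762, without overlap, with a log2 fold change of 0.27 (SE 0.0644, edgeR adjusted p = 0.108). It was called in 6 of the 19 other settings, among them edgeR's exact and likelihood ratio tests, with adjusted p over all 19 between 0.00989 and 0.482. Of 75 other mitotic genes tested, 43 were higher and 32 lower, where 52.4% of all genes were higher. None of the 75 was called by edgeR's quasi-likelihood test, against 0.708% of all genes. DESeq2 called 1 of them, FAM83D, higher, against 0.442% of all genes. At an unadjusted p below 0.05, 6 were higher and 3 lower, where 4.43% of all genes were higher and 5.25% lower. The median log2 fold change of the 75 genes was 0.04. The largest positive values were those of FAM83D, a spindle protein that recruits casein kinase (0.41, SE 0.0924, edgeR adjusted p = 0.0847), and PSRC1 (0.34). The most negative were CENPC, a centromere protein (-0.24), and SPC25, a subunit of the NDC80 complex (-0.20, edgeR adjusted p = 0.205). In SPC25 the libraries measured 94.7, 93.2 and 92.2 CPM with DMSO and 84.2, 78.5 and 80.6 CPM with AZD7762, so that every treated library lay below every control.

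The anaphase-promoting complex, the ligase that CDC20 activates and UBE2C serves, had 9 of 14 subunits higher, where 52.4% of all genes were. None of the 14 had p below 0.05, against 9.68% of all genes in either direction. The median log2 fold change of the complex was 0.02, and it ran from -0.007 to 0.05 without 1 sample. CDC26 was at 0.24, ANAPC11 at 0.16, ANAPC15 at -0.12 and ANAPC4 at -0.10. DNA replication genes, which peak earlier in the cycle, had a median of 0.03, and 0.0075 to 0.0444 without 1 sample. Of these genes, 29 of 40 were higher, as given above. None of the 40 was higher at p below 0.05 and 2 were lower, a share near the 5.25% of all genes, namely the S phase cyclin CCNE2 (-0.17) and the origin licensing factor CDC6 (-0.15), while POLA2 and TK1 (both 0.17) had the largest positive values. Among 21 genes of the DREAM complex and the CDK inhibitors, 12 were higher with a median of 0.00, and 2 of the 21 were higher at p below 0.05, against 4.43% of all genes. These were MYBL2 (B-MYB, 0.13) and CDKN2A (p16 and p14ARF, 0.16). The inhibitors CDKN1C (-0.18) and CDKN1A (p21, -0.12) had the most negative values with p above 0.05. In none of these 3 lists was a gene called by edgeR or DESeq2 at an adjusted p below 0.05. Few genes were called at all, 0.708% of all genes by edgeR's quasi-likelihood test and 0.992% by DESeq2. Other genes overlap the exons of PLK1 (12.8% of its exon length), CCNE2 (37.1%), ANAPC15 (27.1%) and CDKN2A (15.3%). On the same strand they overlap those of POLA2 (16.8%) and ANAPC11 (6.13%). The values of all these genes are therefore uncertain. Differences between the lists were not tested.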

How the data were processed

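Libraries were made from polyadenylated RNA with a stranded or an unstranded kit, and the sources do not say which was used for each sample. The authors trimmed and aligned paired reads and obtained gene counts with HTSeq-count. The submitters' processing notes name FastQC 0.10.1, cutadapt 1.18 and GRCh37; the aligner is not given in the sources used here. The deposited values are raw counts per gene, 1 file per sample, for 60671 Ensembl identifiers.

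Symbols, positions, exon lengths, overlaps and GC content came from a GENCODE annotation mapped to GRCh37. Of the identifiers, 2025 were not matched (440 with a count, 0.153% of all counts), so the annotation behind the files differs from the one used here. The analysis used edgeR 4.0.16 in R 4.3.3 (filterByExpr for the 2 groups, TMM scaling, quasi-likelihood test on treatment alone, two-sided, Benjamini-Hochberg adjustment over 17649 genes, threshold 0.05). TMM factors lay between 0.983 and 1.02. DMSO replicates 1, 2 and 3 held 29402440, 26921225 and 20486391 counts and AZD7762 replicates 1, 2 and 3 held 25494187, 21441444 and 21503144. Standard errors were recovered from the F statistic and the fitted log2 fold change, and intervals use the fit's residual degrees of freedom. Replicates of a group differed by more than sampling noise (chi-square per gene between 4.92 and 9.53).

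The members and lists were chosen with earlier results of these data known. The result of 1 cell type marker is not reported here on its own. All 40 members are named. Values in every sample are given for members called, those at an unadjusted p below 0.05, the 3 largest rises and falls, and CDK1, CCNB1, AURKB, MKI67 and FOXM1. For other lists, the 2 largest rises and falls above a mean log2 CPM of 1 are named. Promoters were taken from fully described members whose window holds a CHR string, at most 6 in order of p, so later ones such as CDK1 are not shown.

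Alternatives were other scaling factors, filters, tests (DESeq2 1.42.0, edgeR's exact and likelihood ratio tests), a replicate block, GC and length trends, thinning, and leaving out each sample. The quasi-likelihood test was also run on simulated counts for 17451 genes, with mean levels and library totals taken from these samples. Every simulated gene was given the same dispersion, without trends on GC content or length, and changed genes were drawn at random. The test called 26% of genes changed by 0.3 on the log2 scale, 62% at 0.5, 100% at 1 and 98% at 2, with 6 false calls. Spread differs from gene to gene in the real libraries, so these shares need not hold for the mitotic genes.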

Additional observations from a re-analysis of the deposited data

How the results depend on the processing

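Over the 19 other settings, 27 of the 40 mitotic genes kept the sign of their log2 fold change and 8 were called in at least 1 (AURKA, KIF20A, CDC20, CENPA, CCNA2, CCNB1, PTTG1 and BUB1); the cause of changes was not tested. The 125 genes called (63 higher, 62 lower) became 330 (149 and 181) without a filter, 267 (106 and 161) by the likelihood ratio test, 254 (104 and 150) by the exact test and 232 (95 and 137) with trends on GC content and length removed, 97 were lower by DESeq2, and leaving out 1 sample gave 77 to 168 (higher 49 to 108, lower 28 to 65). Mitotic genes called went from 1 to 2 without a filter and by DESeq2, to 4 by the likelihood ratio and exact tests and with these trends removed, and to between 0 and 1 without 1 sample. At an unadjusted p below 0.05 there were 11, 6 with library totals alone, 18 with these trends removed and 6 to 14 without 1 sample, and 0 lower, 1 (CENPE) without a filter and 0 to 1 without 1 sample. The labels do not say whether replicate numbers pair the samples, and they were not taken as pairs: deviations of same-numbered samples correlated at 0.0549, 0.127 and 0.214, where DMSO replicates 2 and 3 correlated best with their own number and DMSO replicate 1 with AZD7762 replicate 2 (0.178). With a replicate block, 378 genes were called (181 higher, 197 lower), 5 of them mitotic, with 17 mitotic genes at p below 0.05 (16.1% of all genes); the replicate block with these trends removed gave 487 (208 and 279), 8 and 22 (16.3%). Library totals alone moved the median of all genes by -0.0352 on the log2 scale. Medians under that scaling were 0.0666 for the mitotic genes (0.0733 to 0.106 without 1 sample), 0.121 for the Aurora group, 0.0689 for the chromosome, proteolysis and transcription group, 0.000242 for other mitotic genes, -0.00961 for DNA replication and -0.0308 for the DREAM list. The Aurora median was 0.123 with these trends removed and 0.124 with the block added, and 0.133 to 0.162 without 1 sample. Without 1 sample, the centromere median ran from -0.0822 to 0.0413, that of other mitotic genes from 0.0101 to 0.0468 and that of the DREAM list from -0.0343 to 0.0240. CDK1 was -0.00486 under upper quartile scaling, -0.0232 with library totals and -0.000865 after thinning, KIF11 -0.00157, -0.0201 and -0.00379, and HMMR -0.00530 and -0.0238 under the first pair of these. ANLN was -0.00320 with library totals. With these trends removed, and then with the block added, the values were 0.0404 and 0.0365 for ASPM, -0.00229 and -0.00237 for CCNF, 0.0305 and 0.0310 for ECT2, 0.0171 and 0.0130 for KIF14, 0.0296 and 0.0262 for KIF20B, and 0.0331 and 0.0322 for TOP2A, while PRC1 was 0.000539 with these trends removed. Ranges without 1 sample were -0.198 to 0.0516 for CENPF, -0.0138 to 0.0544 for CDK1, -0.148 to 0.212 for MKI67, -0.0312 to 0.0886 for ANLN, -0.159 to 0.0736 for ASPM, -0.00426 to 0.0900 for CCNF, -0.0653 to 0.00909 for ECT2, -0.0230 to 0.0522 for HMMR, -0.0387 to 0.0518 for KIF11, -0.121 to 0.0127 for KIF14, -0.113 to 0.0143 for KIF20B, -0.0949 to 0.0443 for PRC1 and -0.0456 to 0.0239 for TOP2A.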
